A study of Ipomoea batatas with 12 samples.

Results

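Roots of sweetpotato (Ipomoea batatas) labelled as overexpressing MBP3 (MBP3-OE) were compared between 4 months and 1 month of age, with 3 libraries at each age. Every gene with a mean of at least 0.5 FPKM (fragments counted on a gene, scaled for its length and for library depth) over these 6 libraries was taken, which gave 27511 of the 45142 genes in the deposited table and 6 of its 12 libraries. The study followed roots of different ages to find genes linked to tuberous root development. It also holds 3 MBP3-OE libraries of 20 days and 1 library each of 20 days, 1 month and 4 months of wild-type plants (WT) of the cultivar Taizhong 6. The construct and the promoter that drive MBP3 are not given in the sources used here, and neither is whether the MBP3-OE numbers 2, 3 and 8 mark lines or single plants, so a p-value measures only the spread between these libraries. Ages follow the labels, while the design text of the series gives a later day than 1 month for developing WT roots. Values of MBP3-OE libraries below stand in the order of numbers 2, 3 and 8. Most genes are named by a fixed rule on size and level, and those outside it, listed with the processing, were chosen after their values were seen.

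A sweetpotato storage root forms when a young root leaves the path to a lignified, absorbing root and thickens. Cambia then add storage parenchyma, the cells of which fill amyloplasts with starch and vacuoles with sporamin, a trypsin inhibitor that serves as the main storage protein. The periderm, a corky layer sealed with suberin, comes to cover the organ, and much of the early apparatus of the root for water and mineral uptake is no longer at its surface.

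The 6 libraries held 39424503 to 58486728 counts. A principal component over all tested genes that carried 63.4% of the variance placed the 4-month libraries at 199, 48.1 and 103 and the 1-month libraries at -95.5, -128 and -127, so the ages did not overlap and 4-month libraries lay further from one another. Correlations of log values between libraries were 0.871 to 0.917 within 4 months, 0.908 to 0.938 within 1 month and 0.698 to 0.853 between ages. The common coefficient of variation between libraries was 0.487 at 4 months and 0.396 at 1 month. MBP3 itself, annotated as the neighbouring genes g4107 and g4109, which may share reads, did not pass the test between ages. Gene g4107 had 55.8, 67.5 and 121 FPKM at 4 months and 29.7, 58.3 and 51.3 at 1 month (log2 fold change 1.14, SE 0.36, edgeR adjusted p = 0.0863). The single WT libraries had 83.2 FPKM at 4 months and 23.2 FPKM at 1 month. The 4-month library labelled WT thus lay inside the range of the 4-month libraries labelled MBP3-OE, and these labels, not the level of MBP3, define the genotypes below.

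At a Benjamini-Hochberg adjusted p under 0.05 in edgeR's quasi-likelihood test and a change of at least 2-fold, 1322 genes were higher at 4 months, which is 4.81% of the genes tested, and 1305 were lower, which is 4.74%. The words rose and fell are used below for these calls, and every other member of a list is counted as not called. Counts of calls in any list are to be read against these 2 shares. In 2627 of 2627 called genes the 3 libraries of one age lay wholly above or below the 3 of the other on TMM-scaled counts, as 19.8% of all tested genes did above and 20.5% below. The count of calls rested on single libraries. Without 4-month library 8 it was 0 higher and 4 lower, although 7490 genes kept an unadjusted p under 0.05. Those 4 genes were the proline-rich protein genes g59796 and g15560, the metacaspase-like gene g59499 and g55013, which has no description. Without 1-month library 8 the counts were 22 higher and 38 lower, without 1-month library 3 they were 111 and 156, without 1-month library 2 they were 532 and 588, and without 4-month library 2 they were 466 and 570. Without 4-month library 3 there were 1341 higher and 1567 lower. In each of these 6 fits all 2627 called genes kept their direction. As their ages did not overlap, this was all but fixed in advance and is no sign of stability. Of the genes named below only g59796 and g15560 kept their call without 4-month library 8. The split of calls also turned on the scaling. Fold changes below use trimmed-mean (TMM) scaling, under which the median log2 fold change of all genes was -0.02. Scaling by library totals alone set that median at -0.29 and the split at 746 higher and 1682 lower, and limma on log2 FPKM gave 899 higher and 3030 lower with a pseudocount of 1 and 1020 higher and 3114 lower with 0.1.

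**Figure D1:**
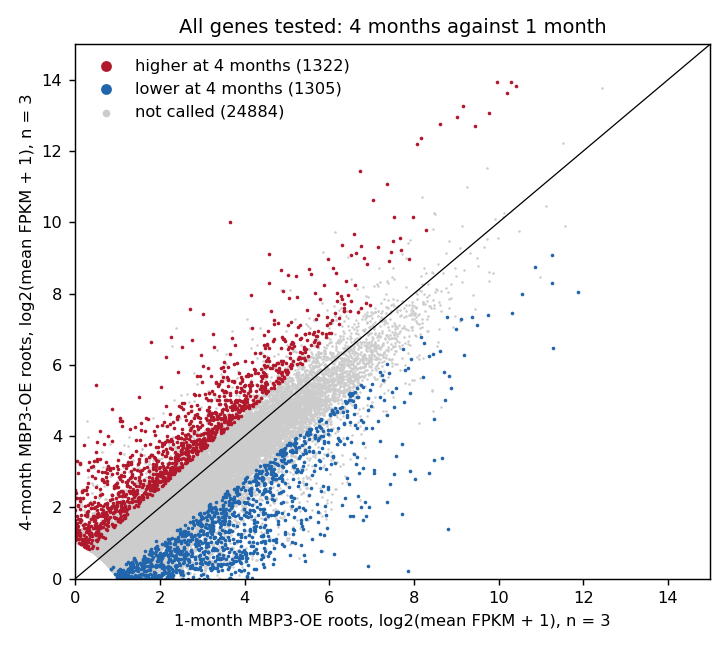
Each point is 1 of the 27511 genes tested, at log2 of its mean FPKM plus 1 over the 3 1-month libraries (horizontal axis) and over the 3 4-month libraries (vertical axis), with the 1322 genes higher at 4 months in red, the 1305 lower in blue and the rest in grey. The most abundant red points, at the top, are sporamin genes.

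Sporamin genes made the largest gains at 4 months. Of 23 sporamin genes tested, 20 rose and none fell, with a median log2 fold change of 4.48 over the list, against -0.02 over all genes. Together they took 17.8%, 8.68% and 16.7% of all counts at 4 months, against 1.3%, 1.7% and 0.418% at 1 month, and their FPKM values summed to 136156, 65834 and 128346 FPKM at 4 months, against 9888, 13339 and 3226 FPKM at 1 month. Number 3 had the lowest sum at 4 months and the highest at 1 month, and the ages did not overlap (mean share 14.4% ± 4.97 at 4 months and 1.14% ± 0.655 at 1 month, SD, n = 3 each, exact two-sided permutation p = 0.1, the smallest that 3 against 3 can give). All 20 called sporamin genes lie on linkage group 11, between positions 38788326 and 40219667 of the deposited table, a stretch of 1431 kb. Reads of such near-identical copies may be split among them, so single members are less certain than the sum. With libraries 2, 3 and 8 left out in turn, the sporamin rises numbered 7, 21 and 0 for the 4-month libraries and 3, 1 and 0 for the 1-month libraries.

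The most abundant member, g46653 (sporamin), had 19850.0, 9259 and 18115 FPKM at 4 months, against 1481, 1817 and 456 at 1 month (log2 fold change 4.00, SE 0.74, edgeR adjusted p = 0.0289). Next came g46662 (sporamin B), with 18265, 9395 and 19126 FPKM at 4 months, against 899.7, 1862 and 238 at 1 month (log2 fold change 4.31, SE 0.88, edgeR adjusted p = 0.0341). The same 2 libraries were high in both genes, numbers 2 and 8 at 4 months, and numbers 3 and 2 at 1 month. At the low end, g46655 (sporamin B) and g46671 (sporamin A) had no count in any 1-month library and were at least 144-fold and 30.3-fold higher at 4 months, taking 3 counts per library as the floor at 1 month. The 3 members that were not called were g46675, g46881 and g46678. Gene g46675 (sporamin A) had 9.57, 282 and 315 FPKM at 4 months and 226, 185 and 330.3 at 1 month, with its low value in 4-month library 2. Inside the cluster lies g46674, annotated as a LINE-type retrotransposon, with 3967, 1402 and 3019.5 FPKM at 4 months, against 102, 164 and 49.6 at 1 month (log2 fold change 5.10, SE 0.77, edgeR adjusted p = 0.023). Its lowest library was number 3 at 4 months and number 8 at 1 month.

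Genes that make starch rose or were not called. Of 22 tested, 11 rose and 0 fell, with a median log2 fold change of 1.07. In 14 of 22 every 4-month library lay above every 1-month library, as in 19.8% of all genes tested. ADP-glucose pyrophosphorylase makes ADP-glucose, the glucosyl donor of starch, and its beta subunit gene g59752 (IbAGPb1A) had 4195, 1104 and 1221 FPKM at 4 months, against 65, 325 and 97.6 at 1 month (log2 fold change 4.15, SE 0.93, edgeR adjusted p = 0.0398). Number 2 was the high library at 4 months and the low one at 1 month. The alpha subunit gene g30656 (IbAGPa1) had 191, 59.4 and 66.2 FPKM at 4 months, against 18.5, 33.7 and 23.1 at 1 month (log2 fold change 2.46, SE 0.57, edgeR adjusted p = 0.0428). Granule-bound starch synthase I, g39231, which makes amylose inside the granule, had 1109, 1102 and 1188 FPKM at 4 months, against 119.7, 432 and 198 at 1 month (log2 fold change 2.52, SE 0.51, edgeR adjusted p = 0.0334). Its 3 libraries of 4 months stood close together, while number 3 was high at 1 month. Granule-bound starch synthase 2, g17409, had 156, 115 and 145 FPKM at 4 months, against 51, 40.8 and 23.3 at 1 month (log2 fold change 2.17, SE 0.39, edgeR adjusted p = 0.0277). Starch branching enzyme II, g25144, which sets the branch points of amylopectin, had 91.5, 95.9 and 81.6 FPKM at 4 months, against 33.8, 36 and 26.3 at 1 month, one of the tightest rises in the list (log2 fold change 1.80, SE 0.24, edgeR adjusted p = 0.0187). Smaller rises were seen in starch synthase 3 (g46489, log2 fold change 1.58), starch branching enzyme I (g51137, 1.28), plastid phosphoglucomutase (g1634, 1.45) and starch synthase 4 (g42455, 1.27). The 11 rises of the starch list became 3, 11 and 0 when 4-month libraries 2, 3 and 8 were left out in turn, and 2, 2 and 0 when the 1-month libraries were.

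The genes tested for the import of carbon and energy into the plastid were few, and none fell. Of 8, 1 rose, the triose phosphate translocator g34549 with 44.8, 63.8 and 74.4 FPKM at 4 months, against 29.5, 13.2 and 24.1 at 1 month (log2 fold change 1.75, SE 0.36, edgeR adjusted p = 0.0344). The glucose-6-phosphate translocator g54060, the usual route of carbon into amyloplasts, had 57.1, 48.5 and 57 FPKM at 4 months and 37, 79.9 and 70.1 at 1 month. The ADP/ATP carrier g31434 had 83.2, 56.1 and 36.8 FPKM at 4 months and 49.9, 68.6 and 66 at 1 month. Both sets of values overlapped between ages, with edgeR adjusted p = 0.768 and 0.61.

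Some genes for starch breakdown were higher as well. Of 37 tested, 8 rose and 1 fell. The L-type starch phosphorylase g1272, a plastid enzyme that can both trim and extend glucan chains, had 764, 259.8 and 478 FPKM at 4 months, against 33.5, 88.4 and 62.4 at 1 month (log2 fold change 3.42, SE 0.59, edgeR adjusted p = 0.0267). A beta-amylase-like gene, g54671, had 45.2, 40.1 and 46.8 FPKM at 4 months, against 12.8, 5.24 and 9.09 at 1 month (log2 fold change 2.59, SE 0.38, edgeR adjusted p = 0.022). The glucanotransferase DPE2, g58660, which uses the maltose that beta-amylase releases, had 7.15, 13.1 and 20.2 FPKM at 4 months, against 2.47, 2.8 and 3.49 at 1 month (log2 fold change 2.52, SE 0.37, edgeR adjusted p = 0.0221). Across the 3 ages, the phosphorylase averaged 2.81 FPKM at 20 days, 61.4 FPKM at 1 month and 501 at 4 months (n = 3 each), higher at each later age. The most abundant member, the beta-amylase g13691, had 686, 494 and 994 FPKM at 4 months and 241, 369 and 102 at 1 month. It was not called (edgeR adjusted p = 0.0698), although its ages did not overlap. The chloroplastic beta-amylase 1 gene g42739, also abundant, leaned the other way and was not called. It had 75.1, 218 and 107 FPKM at 4 months and 710, 234 and 511 at 1 month (log2 fold change -1.61, SE 0.53, edgeR adjusted p = 0.0919). The 1 called fall was that of alpha-amylase-like g38680, with 1.89, 2.21 and 2.77 FPKM at 4 months, against 10.9, 7.19 and 6.76 at 1 month (log2 fold change -1.55, SE 0.32, edgeR adjusted p = 0.0343).

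**Figure D2:**
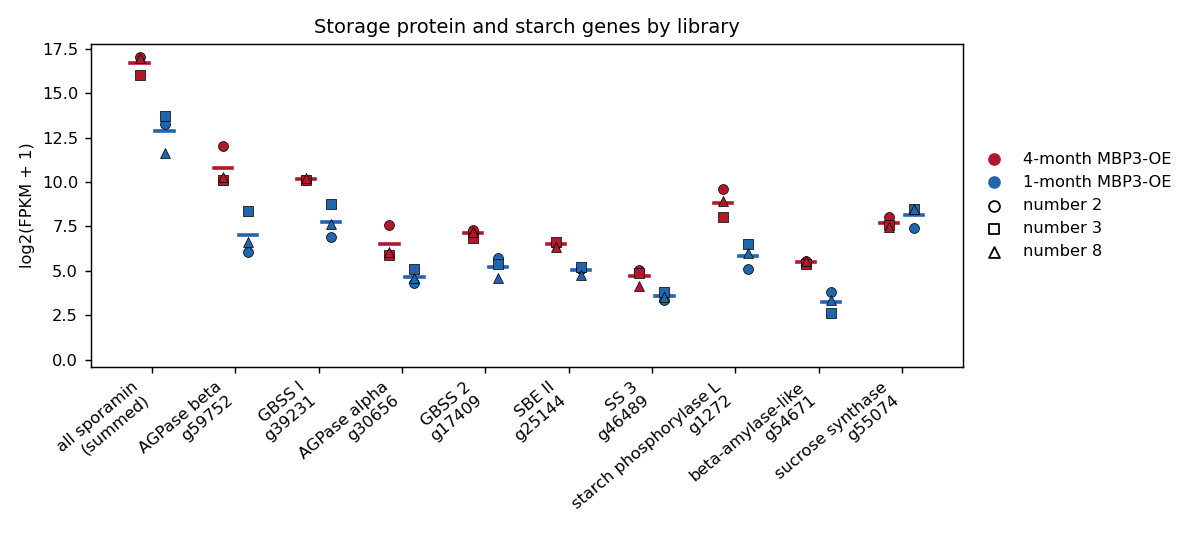
Log2 of FPKM plus 1 of the summed sporamin genes and of 9 starch and sucrose genes in each MBP3-OE library, 4-month libraries in red to the left of 1-month libraries in blue, with the library number as the marker and the mean as a bar. Sporamin, the ADP-glucose pyrophosphorylase subunits, starch synthases and phosphorylase stand higher at 4 months in all 3 libraries, while sucrose synthase g55074 overlaps between ages.

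Sucrose, the sugar delivered by the phloem, is split in sink organs by sucrose synthase and invertase. The most abundant sucrose synthase, g55074, had 257, 189 and 175 FPKM at 4 months and 170.4, 362 and 353 at 1 month (log2 fold change -0.16, SE 0.37, edgeR adjusted p = 0.80), with no separation of ages. Sucrose synthase 3, g5497, had 638, 146 and 104 FPKM at 4 months and 208, 127 and 63.9 at 1 month, and its high 4-month value was that of number 2 alone. The median of the 37 genes for sucrose cleavage was -0.30. Of them 1 rose and 4 fell, and 3 of those that fell were the weakly expressed sucrose synthase 7-like genes g30039, g55342 and g29617 (log2 fold change -2.99, -2.61 and -2.61). Among sugar transporters 1 of 36 rose (2.78%) and 5 fell (13.9%). SWEET proteins let sugars leave cells down a gradient, and the SWEET12-like gene g55355 had 5.35, 1.52 and 5.11 FPKM at 4 months, against 124, 139.6 and 42.7 at 1 month (log2 fold change -4.32, SE 0.72, edgeR adjusted p = 0.025). The SWEET12-like gene g14486 and the SWEET15-like gene g13601 fell as well (log2 fold change -2.85 and -5.40). The sucrose transporter g13783, which moves sucrose across membranes, had 21.6, 110.2 and 56.2 FPKM at 4 months and 205, 181 and 271 at 1 month. It was not called (edgeR adjusted p = 0.0882). Sieve element markers moved beside these: of 37 tested 4 fell and 0 rose, and their sum was 40.6 to 93.5 FPKM at 4 months, against 95.4 to 172 FPKM at 1 month, and their part in the result was not tested.

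Genes of the photosynthetic apparatus rose, with the largest median of the 50 lists after sporamin. Of 35 genes for photosystem subunits and light-harvesting proteins, 20 rose and 0 fell (median log2 fold change 2.98). In 33 of 35 the 4-month libraries all lay above the 1-month libraries, as in 19.8% of all genes tested. Of the 22 genes of the Calvin cycle, which fixes carbon dioxide, 18 rose and 0 fell (median 2.95), and of 10 genes of electron transport 7 rose and 0 fell. Chlorophyll synthesis had 7 rises and 1 fall among 19 genes. The lists for the Calvin cycle, electron transport and chlorophyll were drawn up after their values had been seen. Leaving out 4-month libraries 2, 3 and 8 in turn left 11, 14 and 0 photosystem rises and 13, 15 and 0 Calvin cycle rises, and leaving out 1-month libraries 2, 3 and 8 left 10, 9 and 1 in each of these lists.

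The light-harvesting gene g37391 (chlorophyll a-b binding protein of LHCII type 1) had 487, 1008 and 1581 FPKM at 4 months, against 20.0, 0.768 and 14.2 at 1 month (log2 fold change 6.73, SE 1.26, edgeR adjusted p = 0.0294), the largest rise among them. Chlorophyll a-b binding protein 8, g43385, had 874, 663 and 912 FPKM at 4 months, against 159.6, 34.6 and 91.5 at 1 month (log2 fold change 3.40, SE 0.62, edgeR adjusted p = 0.0282). Number 3 was the lowest 1-month library in both genes. In photosynthetic electron transport, plastocyanin, g38044, the copper protein that passes electrons to photosystem I, had 579, 553 and 833 FPKM at 4 months, against 77.8, 20.7 and 133 at 1 month (log2 fold change 3.41, SE 0.67, edgeR adjusted p = 0.0315). Ferredoxin, g46591, which receives electrons from photosystem I, had 109, 75.6 and 124 FPKM at 4 months, against 3.51, 3.02 and 10.8 at 1 month (log2 fold change 4.51, SE 0.59, edgeR adjusted p = 0.0187). In both electron carriers the ages did not overlap, and number 3 was the lowest library at each age. In the Calvin cycle, plastid fructose-bisphosphate aldolase g29379 had 203, 194 and 171 FPKM at 4 months, against 10.5, 1.82 and 4.46 at 1 month (log2 fold change 5.36, SE 0.72, edgeR adjusted p = 0.0193). Phosphoribulokinase g60730, which regenerates the acceptor of carbon dioxide, had 113, 95 and 122 FPKM at 4 months, against 5.2, 0.888 and 5.27 at 1 month (log2 fold change 5.17, SE 0.72, edgeR adjusted p = 0.0213). The small subunit of rubisco, g29220, had 326, 426 and 186 FPKM at 4 months, against 26.3, 2.54 and 39.4 at 1 month (log2 fold change 4.08, SE 0.94, edgeR adjusted p = 0.042). The library of number 3 was the lowest at 1 month in all 3 Calvin cycle genes. In the chlorophyll list the cyclase gene g42876 had 302, 601 and 803 FPKM at 4 months, against 140.1, 151 and 236 at 1 month (edgeR adjusted p = 0.0335). Protochlorophyllide reductase g54429, the light-driven step in flowering plants, had 95.3, 101 and 115 FPKM at 4 months, against 36.1, 10.9 and 39.7 at 1 month (log2 fold change 2.16, SE 0.49, edgeR adjusted p = 0.0404).

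Summed over the 35 photosystem genes, the level was 5040.5, 6986 and 10285 FPKM at 4 months, against 1389, 369 and 1227 FPKM at 1 month. The 3 MBP3-OE libraries of 20 days had 111, 262 and 228 FPKM. In WT the sum was 826 FPKM at 4 months and 331 FPKM at 1 month, so that the single 4-month WT library lay below all 3 4-month MBP3-OE libraries. These genes are the defining markers of green tissue: of 36 marker genes 20 rose and 0 fell, none was at 0 in all libraries of an age, and their sum was 5046 to 10296 FPKM at 4 months, against 374 to 1394 FPKM at 1 month. How much green tissue each root sample held is not given, and its part in the result was not tested. In bulk samples like these, a change in the number of cells of a type and a change in RNA per cell cannot be told apart.

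**Figure D3:**
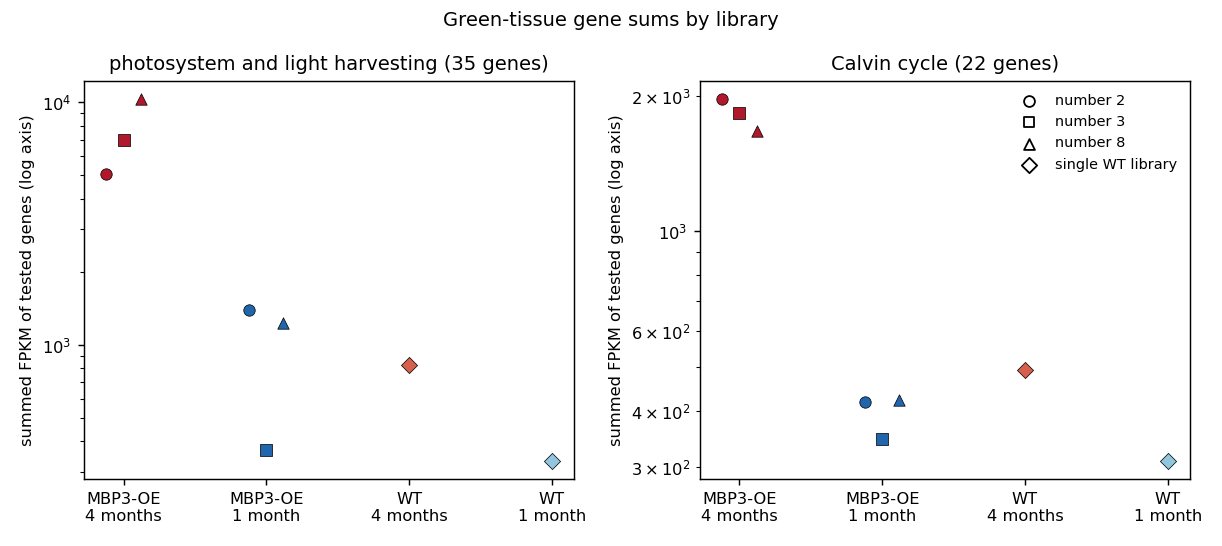
Summed FPKM, on a log axis, of the 35 tested photosystem and light-harvesting genes (left) and of the 22 tested Calvin cycle genes (right) in each library of 4-month and 1-month MBP3-OE roots and in the single WT libraries of the same ages. All 4-month MBP3-OE libraries lie above all 1-month ones in both panels, and above the 4-month WT library.

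Of 57 light receptor and clock genes 11 rose and 2 fell (19.3% and 3.51%, against 4.81% and 4.74% of all genes tested). GIGANTEA, a clock protein that also times flowering, is present in several copies, and g42312 had 68.9, 57.3 and 24.7 FPKM at 4 months, against 13, 4.6 and 6.95 at 1 month (log2 fold change 2.93, SE 0.57, edgeR adjusted p = 0.0314). The more abundant g2051 had 154, 169 and 139.5 FPKM at 4 months and 224, 131 and 161 at 1 month, which overlapped between ages. The CONSTANS-LIKE 2 gene g30000 had 3.19, 3.0 and 3.83 FPKM at 4 months, against 0.0958, 0.225 and 0.502 at 1 month (log2 fold change 3.93, SE 0.59, edgeR adjusted p = 0.0231). Phytochrome B, g13495, the red light receptor, had 6.71, 12.1 and 7.44 FPKM at 4 months, against 1.28, 2.05 and 2.15 at 1 month (log2 fold change 2.56, SE 0.27, edgeR adjusted p = 0.0161).

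Called cell wall genes were mostly falls. Expansins loosen the wall without cutting it, and of 24 tested 5 fell and 0 rose, with a median log2 fold change of -1.38. All 5 belong to the 59 IbEXP genes the study names, of which 39 have a row in the deposited table and 27 were tested. IbEXPA3 (g3926, expansin-A2-like) had 0.28, 0.642 and 0.716 FPKM at 4 months, against 15.2, 21 and 31.8 at 1 month (log2 fold change -5.05, SE 0.44, edgeR adjusted p = 0.0125). Across the 3 ages it averaged 60.3 FPKM at 20 days, 22.7 FPKM at 1 month and 0.546 at 4 months, lower at each later age. IbEXLA2 (g59839, expansin-like 1) had 10.2, 17.2 and 15.4 FPKM at 4 months, against 76.9, 92 and 86 at 1 month (log2 fold change -2.27, SE 0.21, edgeR adjusted p = 0.0125), with the libraries of each age close together. IbEXPA25 (g42794) had 1.58, 1.72 and 4.13 FPKM at 4 months, against 7.25, 21.6 and 15.6 at 1 month (log2 fold change -2.23, SE 0.53, edgeR adjusted p = 0.0451). IbEXPB4 (g27129) had no count in any 4-month library and was at least 41.1-fold lower than at 1 month by the floor of 3 counts, where number 3 was high, and IbEXPB5 (g27144) had 0, 0 and 0.0582 FPKM at 4 months, against 1.51, 1.09 and 3.08 at 1 month. IbEXPA4 (g4923), the second most abundant expansin, had 8.19, 7.81 and 11.3 FPKM at 4 months and 9.97, 11.3 and 35.6 at 1 month. It was not called. Of the expansin list 2, 4 and 0 genes fell without 4-month library 2, 3 or 8, and 2 fell without any one of the 1-month libraries.

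Of 89 genes for enzymes that act on xyloglucan and pectin, 5 rose and 10 fell (5.62% and 11.2%, against 4.81% and 4.74% of all genes tested). Xyloglucan endotransglucosylases cut and rejoin the tethers between cellulose fibrils, and one of them, g16528, had 137, 729 and 208 FPKM at 4 months, against 34.6, 37.2 and 36.4 at 1 month (log2 fold change 3.55, SE 0.59, edgeR adjusted p = 0.0253), with number 3 far above the others at 4 months. Gene g29104, of the same family, had 45.6, 108 and 66.4 FPKM at 4 months, against 3.96, 1.53 and 4.87 at 1 month (log2 fold change 4.68, SE 0.52, edgeR adjusted p = 0.0166). Another, g23481, fell, with 1.99, 7.06 and 5.79 FPKM at 4 months, against 71.2, 57.1 and 55.8 at 1 month (log2 fold change -3.37, SE 0.44, edgeR adjusted p = 0.0187). Polygalacturonase g54803, which cuts pectin, had 0.385, 0.802 and 1.26 FPKM at 4 months, against 4.31, 34.3 and 35.8 at 1 month (log2 fold change -4.59, SE 0.85, edgeR adjusted p = 0.0289). Exopolygalacturonase g30668 had no count in any 4-month library and was at least 50.2-fold lower.

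In cellulose synthesis 9 of 43 genes fell and 1 rose (median -1.14). The falls included 2 of 3 CesA7 genes, subunits of the complex that lays down secondary walls: g47134 had 0, 0.189 and 0.142 FPKM at 4 months, against 1.91, 3.75 and 4.8 at 1 month (log2 fold change -4.68, SE 1.05, edgeR adjusted p = 0.0398), and g26773 had 0.548, 0.265 and 0.411 FPKM at 4 months, against 2.22, 3.42 and 5.99 at 1 month. CesA1, g19658, a subunit of the primary wall complex and the most abundant member, had 68.7, 71.3 and 44.5 FPKM at 4 months and 61.6, 91.5 and 80.8 at 1 month. It overlapped between ages (edgeR adjusted p = 0.977). In the lignin list 13 of 111 fell (11.7%) and 4 rose (3.60%). Laccases couple lignin units in the wall, and the laccase-4-like gene g58890 had 0, 0.436 and 0.18 FPKM at 4 months, against 3.57, 12.5 and 8.99 at 1 month (log2 fold change -5.07, SE 1.15, edgeR adjusted p = 0.0408). The cinnamoyl-CoA reductase g57789 rose, with 8.99, 7.48 and 7.45 FPKM at 4 months, against 0.16, 0.894 and 1.08 at 1 month (log2 fold change 3.84, SE 0.64, edgeR adjusted p = 0.0257). Of 68 class III peroxidases, which also cross-link lignin and suberin, 13 fell and 0 rose. Of the falls 7 lie on linkage group 1, 6 of them peroxidase-like protein 2 genes, and g592 among them had 0.211, 0.527 and 0.147 FPKM at 4 months, against 7.78, 26.4 and 13.4 at 1 month (log2 fold change -5.34, SE 0.64, edgeR adjusted p = 0.0166). These copies may share reads.

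Structural wall proteins held some of the largest falls, in a list drawn up after values had been seen. Of 66 genes 16 fell and 0 rose (median -1.54). Proline-rich protein 4, g59796, had 1.62, 2.7 and 0.624 FPKM at 4 months, against 397, 439 and 503 at 1 month (log2 fold change -7.78, SE 0.59, edgeR adjusted p = 0.0117). By age its mean was 85.5 FPKM at 20 days, 446 FPKM at 1 month and 1.65 at 4 months, highest at 1 month. The leucine-rich repeat extensin-like gene g54669, from a family that links wall and membrane, had 0, 0.646 and 0.211 FPKM at 4 months, against 211, 63.1 and 83.6 at 1 month (log2 fold change -8.36, SE 1.10, edgeR adjusted p = 0.0187). The 14 kDa proline-rich protein gene g15562 (DC2.15-like) had 359.6, 355 and 217 FPKM at 4 months, against 1609.6, 2781 and 2969 at 1 month (log2 fold change -2.64, SE 0.37, edgeR adjusted p = 0.0213). Its neighbour g15560 had 0.634, 1.35 and 16.1 FPKM at 4 months, against 260.2, 254 and 267 at 1 month, where number 8 was high at 4 months. Markers of xylem with secondary walls moved beside these lists: of 38 tested 10 fell and 1 rose, and their sum was 64.0 to 131 FPKM at 4 months, against 162 to 314 FPKM at 1 month. Their part in the result was not tested. The 16 falls of the structural list became 8, 18 and 2 without 4-month library 2, 3 or 8, and 12, 4 and 1 without 1-month library 2, 3 or 8.

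Among genes of the barriers around the root, falls outnumbered rises. Suberin is a waxy polyester of endodermis and periderm, and of 46 genes in the suberin and Casparian strip list 11 fell and 1 rose. Cytochrome P450 86A1 (g4988), which hydroxylates the fatty acids of suberin, had 0.0453, 3.24 and 0.79 FPKM at 4 months, against 31.8, 90.7 and 51.6 at 1 month (log2 fold change -5.18, SE 1.20, edgeR adjusted p = 0.0428). The CASP-like gene g37018, of a family of membrane proteins that includes the builders of the Casparian strip, had 0.237, 3.05 and 1.76 FPKM at 4 months, against 34.2, 93.6 and 53 at 1 month (log2 fold change -4.89, SE 0.83, edgeR adjusted p = 0.026). The feruloyl transferase g55359, which adds aromatic units to suberin, had 0.071, 2.09 and 0.505 FPKM at 4 months, against 8.9, 48 and 32.1 at 1 month (log2 fold change -4.79, SE 1.13, edgeR adjusted p = 0.0435). In all 3 genes number 3 was the highest library at each age. Across the 3 ages g4988 averaged 7.83 FPKM at 20 days, 58 FPKM at 1 month and 1.36 at 4 months, so the peak was at 1 month. A second feruloyl transferase gene, g25498, rose, with 21.2, 16.6 and 45.4 FPKM at 4 months, against 4.53, 1.54 and 4.22 at 1 month. Suberin and periderm markers, which overlap with this list, summed to 24.2 to 60.1 FPKM at 4 months, against 142 to 325 FPKM at 1 month, with 5 falls and 0 rises of 13. The 1 endodermis marker tested was not called. The 11 suberin falls became 8, 14 and 0 without 4-month library 2, 3 or 8, and 7, 0 and 0 without 1-month library 2, 3 or 8.

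Water channels fell or were not called. Of 30 aquaporins 5 fell and 0 rose (median -1.61). The PIP2-4-like gene g63893, which codes for a plasma membrane channel, had 2.54, 23.5 and 2.1 FPKM at 4 months, against 431, 206 and 579.9 at 1 month (log2 fold change -5.23, SE 1.06, edgeR adjusted p = 0.0341). Across the 3 ages it averaged 1419 FPKM at 20 days, 406 FPKM at 1 month and 9.38 at 4 months. The tonoplast gene g4812 had 0.235, 2.52 and 0.687 FPKM at 4 months, against 15.5, 45.7 and 81.2 at 1 month (log2 fold change -5.09, SE 0.94, edgeR adjusted p = 0.0289). The TIP1-2 gene g25653 had 2.37, 15.2 and 2.43 FPKM at 4 months, against 271, 82.3 and 198 at 1 month (log2 fold change -4.58, SE 0.89, edgeR adjusted p = 0.031). In all 3 genes number 3 was the highest library at 4 months. The most abundant aquaporin at 4 months, g19675 (pTOM75 type), had 585, 549.9 and 718 FPKM at 4 months and 861, 394 and 385 at 1 month. It was not called. The abundant PIP2-7-like gene g4732 had 501, 321 and 236 FPKM at 4 months and 234, 116 and 185 at 1 month (log2 fold change 1.32, SE 0.44, edgeR adjusted p = 0.0942). It was not called either. Of the 30, it was the 1 whose 4-month libraries all lay above the 1-month libraries, while in 17 they all lay below. The 5 aquaporin falls became 1, 12 and 0 without 4-month library 2, 3 or 8, and 2, 0 and 0 without 1-month library 2, 3 or 8.

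In nitrogen uptake and assimilation 7 of 87 genes rose and 9 fell (8.05% and 10.3%, against 4.81% and 4.74% of all genes tested). Nitrite reductase g59680, which works in plastids, had 3.82, 11.7 and 4.9 FPKM at 4 months, against 64.8, 177 and 67.4 at 1 month (log2 fold change -3.64, SE 0.56, edgeR adjusted p = 0.0238). The NRT1/PTR family 4.3 gene g59390 had 0, 0.10 and 0.039 FPKM at 4 months, against 1.01, 4.52 and 3.15 at 1 month (log2 fold change -5.56, SE 1.07, edgeR adjusted p = 0.0302). The nitrate transporter 2.7 gene g30168, of a tonoplast type in Arabidopsis, rose, with 25, 11.4 and 18.7 FPKM at 4 months, against 4.56, 1.58 and 2.24 at 1 month (log2 fold change 3.04, SE 0.55, edgeR adjusted p = 0.0285). The 2 forms of glutamine synthetase, which fixes ammonium, went opposite ways: the plastid form g44770 had 31.1, 33.1 and 41.9 FPKM at 4 months, against 6.4, 1.92 and 9.78 at 1 month (log2 fold change 2.87, SE 0.57, edgeR adjusted p = 0.0319). The cytosolic form g16836 had 73.1, 108 and 111 FPKM at 4 months, against 332, 269.7 and 304 at 1 month (log2 fold change -1.33, SE 0.24, edgeR adjusted p = 0.0287). Of 38 phosphate genes 3 rose (7.89%) and 0 fell. The largest change was that of SPX domain protein 4, g1297, a phosphate sensor, with 11.3, 9.48 and 9.43 FPKM at 4 months, against 3.61, 2.29 and 1.57 at 1 month (log2 fold change 2.32, SE 0.39, edgeR adjusted p = 0.026).

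Among transcription factors the homeobox list had 12 rises and 5 falls of 95 (12.6% and 5.26%, against 4.81% and 4.74% of all genes tested). KNOX and BEL1-like proteins act as pairs that keep cells undetermined in meristems and cambia. The class I KNOX genes g40812 and g40811 (both IBKN4) rose, with 38.7, 5.22 and 11.9 FPKM at 4 months, against 0.837, 0.879 and 1.72 at 1 month for g40812 (log2 fold change 4.43, SE 0.86, edgeR adjusted p = 0.0314) and 25.7, 5.02 and 9.67 FPKM at 4 months, against 0.759, 0.769 and 0.932 at 1 month for g40811. IBKN1 (g59362) had 3.3, 1.61 and 2.49 FPKM at 4 months, against 0.145, 0.218 and 0.154 at 1 month (log2 fold change 4.15, SE 0.48, edgeR adjusted p = 0.0166). The BEL1-like 2 gene g38653 had 68, 28.2 and 54.8 FPKM at 4 months, against 8.46, 4.57 and 6.06 at 1 month (log2 fold change 3.33, SE 0.48, edgeR adjusted p = 0.0219). Number 2 was the highest 4-month library in all 4 genes. The other direction was taken by the WUSCHEL-related gene g20352 (WOX5-like), a factor of the root stem cell niche, which had no count at 4 months and 0.43, 2.36 and 0.677 FPKM at 1 month, at least 15.1-fold lower. By age its mean was 22.3 FPKM at 20 days, 1.16 FPKM at 1 month and 0 at 4 months. The HD-ZIP III gene g63000 (ATHB-15-like), from a family that patterns xylem, had 5.54, 4.6 and 5.92 FPKM at 4 months, against 27.2, 56 and 45.5 at 1 month (log2 fold change -2.65, SE 0.31, edgeR adjusted p = 0.0166).

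Of 75 NAC genes 9 fell and 1 rose. NAC72-like g288, of a stress-responsive type, had 0.855, 2.6 and 3.74 FPKM at 4 months, against 166, 85.4 and 30.2 at 1 month (log2 fold change -5.04, SE 0.83, edgeR adjusted p = 0.025), and NAC86-like g55740, related to Arabidopsis factors of sieve element maturation, was the single rise, with 35.9, 23.1 and 75.7 FPKM at 4 months, against 8.22, 7.72 and 10.9 at 1 month. MYB genes had 6 rises and 14 falls of 103 (5.83% and 13.6%), led by the myb-related pair g17283 and g17691. Gene g17283 had no count at 4 months and 8.42, 0.611 and 1.13 FPKM at 1 month, at least 52.2-fold lower, and g17691 had 0, 0.0895 and 0 FPKM at 4 months, against 41.8, 3.12 and 1.93 at 1 month, and number 2 held most of the 1-month signal of both. AP2/ERF genes had 5 rises and 17 falls of 110 (4.55% and 15.5%), with a share of rises near that of all genes. RAP2-12-like g60949, of the oxygen-sensing group, had 129.8, 185 and 151 FPKM at 4 months, against 582, 678 and 398 at 1 month (log2 fold change -1.53, SE 0.29, edgeR adjusted p = 0.0302). A factor of the ERF017 type, g55038, had no count at 4 months and was at least 33.9-fold lower. None of 26 MADS-box genes was called. In 8 of them all 4-month libraries lay above all 1-month libraries and in 1 below, against 19.8% and 20.5% of all genes. Of 105 bHLH genes 0 rose and 3 fell (2.86%), and of 65 WRKY genes 2 rose (3.08%) and 3 fell (4.62%). These shares were all below those over all genes, 4.81% and 4.74%.

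Most genes of the abscisic acid and ethylene lists were not called, and the calls were mostly falls. The 9-cis-epoxycarotenoid dioxygenases (NCED) catalyse the committed step to abscisic acid, and 4 of them fell. NCED3 g54338 had 3.71, 4.01 and 1.34 FPKM at 4 months, against 232, 41.7 and 93.1 at 1 month (log2 fold change -5.06, SE 0.82, edgeR adjusted p = 0.0246). Across the 3 ages it averaged 613 FPKM at 20 days, 122 FPKM at 1 month and 3.02 at 4 months. NCED1 g43412 had 0.377, 0.758 and 1.02 FPKM at 4 months, against 84.3, 15.1 and 65.2 at 1 month (log2 fold change -5.97, SE 0.79, edgeR adjusted p = 0.0187). At 1 month number 2 was highest in both. Over the abscisic acid list 2 of 31 rose and 5 fell, and a hydroxylase that inactivates the hormone, g38684, was among the falls, with 0.139, 0.258 and 0.394 FPKM at 4 months, against 4.53, 3.54 and 1.95 at 1 month. Of 34 ethylene genes 3 fell (8.82%) and 0 rose. ACC oxidase makes ethylene, and g59369 had 12.9, 12 and 13.2 FPKM at 4 months, against 153, 314 and 159 at 1 month (log2 fold change -3.70, SE 0.35, edgeR adjusted p = 0.0129), with the 4-month libraries almost equal. A second ACC oxidase, g34405, had 2.55, 2.63 and 4.36 FPKM at 4 months, against 18.1, 129 and 86 at 1 month (log2 fold change -4.25, SE 0.71, edgeR adjusted p = 0.025).

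Of 101 auxin genes 5 rose and 9 fell (4.95% and 8.91%, against 4.81% and 4.74% of all genes tested), so the share of rises was that of all genes. The repressor genes g51198 and g51416 (both IAA1-like), which auxin itself induces, fell, g51198 with 0.265, 0.455 and 0.29 FPKM at 4 months, against 9.05, 6.21 and 10.1 at 1 month (log2 fold change -4.31, SE 0.38, edgeR adjusted p = 0.0125). A SAUR gene, g39853, of small proteins that promote cell expansion, rose, with 2.09, 2.36 and 2.71 FPKM at 4 months, against 0, 0 and 0.0742 at 1 month (log2 fold change 6.66, SE 1.09, edgeR adjusted p = 0.0248). Another SAUR gene, g15626 (SAUR36-like), fell. It had no count in any 4-month library and 1.39, 1.63 and 2.88 FPKM at 1 month, at least 28.5-fold lower. Among cytokinin genes 3 of 60 rose (5%) and 1 fell (1.67%), shares near or below those over all genes. The fall was that of cytokinin dehydrogenase 6-like g8886, which degrades the hormone, with 0.125, 0.0229 and 0 FPKM at 4 months, against 1.68, 17.4 and 3.69 at 1 month (log2 fold change -6.75, SE 1.38, edgeR adjusted p = 0.0342). Gibberellin 2-oxidase g5012, which inactivates gibberellins, had 7.92, 6.26 and 8.02 FPKM at 4 months, against 0.198, 1.0 and 0.895 at 1 month (log2 fold change 3.74, SE 0.59, edgeR adjusted p = 0.0242). Gibberellin 20-oxidase g1633, which makes their precursors, had 4.98, 3.74 and 6.33 FPKM at 4 months, against 1.2, 2.07 and 0.712 at 1 month (log2 fold change 2.25, SE 0.48, edgeR adjusted p = 0.0366). Allene oxide synthase g38656, at the entry to jasmonate, had 81.5, 104 and 75.7 FPKM at 4 months, against 19.6, 27 and 17.6 at 1 month (log2 fold change 2.34, SE 0.24, edgeR adjusted p = 0.0154).

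Defence and browning genes fell more often than they rose. Polyphenol oxidases, which brown cut tissue, had 4 falls and 0 rises of 7. Polyphenol oxidase I (g43432) had 34.9, 124 and 71.2 FPKM at 4 months, against 679.9, 631 and 439.9 at 1 month (log2 fold change -2.67, SE 0.46, edgeR adjusted p = 0.0266), but the WT libraries had 766 FPKM at 4 months and 364 FPKM at 1 month. Pathogenesis-related proteins, chitinases and glucanases had 5 rises and 18 falls of 112 (4.46% and 16.1%, against 4.81% and 4.74% of all genes tested). Their share of rises was thus near that of all genes. The STH-2-like gene g8243 had 1.14, 3.54 and 15.8 FPKM at 4 months, against 667, 130.2 and 179 at 1 month (log2 fold change -5.31, SE 1.21, edgeR adjusted p = 0.0412). In the flavonoid list 9 of 69 fell (13.0%) and 3 rose (4.35%, near the share over all genes). Leucoanthocyanidin dioxygenase-like g58862, of a late anthocyanin step, had 0.764, 2.2 and 4.66 FPKM at 4 months, against 115, 432 and 80.9 at 1 month (log2 fold change -6.05, SE 0.98, edgeR adjusted p = 0.0246). Of 32 protease inhibitors other than sporamin 2 rose (6.25%) and 3 fell (9.38%). The Kunitz-type trypsin inhibitor g16356 had 39.7, 59.2 and 164 FPKM at 4 months, against 3257, 2134 and 2084 at 1 month (log2 fold change -4.53, SE 0.65, edgeR adjusted p = 0.0219). The potato inhibitor I type genes g8370 and g8412 rose, g8370 with 76.3, 741 and 825 FPKM at 4 months, against 27.4, 33.4 and 7.66 at 1 month (log2 fold change 4.83, SE 0.99, edgeR adjusted p = 0.0344), where number 2 was far below numbers 3 and 8.

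**Figure D4:**
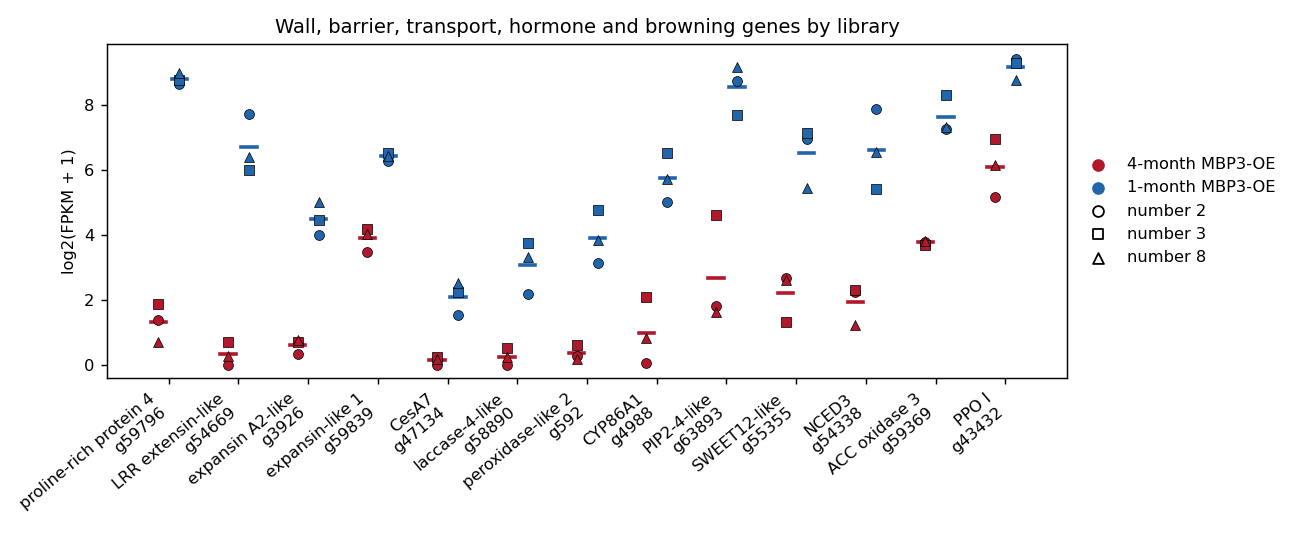
Log2 of FPKM plus 1 of 13 genes that fell, in each MBP3-OE library, 4-month libraries in red to the left of 1-month libraries in blue, with the library number as the marker and the mean as a bar. In each gene all 3 4-month libraries lie below the 1-month libraries, and for the suberin, laccase, peroxidase and aquaporin genes number 3 is the highest 4-month library.

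By FPKM lost, the 10 largest losses among called genes included the inhibitor g16356, the proline-rich protein g15562 and polyphenol oxidase I, given above. The largest of the 10 was that of g42333, which has no description, with 162, 279 and 346 FPKM at 4 months, against 5925, 2275 and 3135 at 1 month (log2 fold change -3.57, SE 0.54, edgeR adjusted p = 0.0236). Others among the 10 were a dehydrin, g24090, of proteins that bind water in drying cells, with 179, 319.7 and 259 FPKM at 4 months, against 2079, 1064 and 1338 at 1 month (log2 fold change -2.29, SE 0.39, edgeR adjusted p = 0.026), metallothionein type 2, g4909, a metal-binding protein, with 395, 379 and 511 FPKM at 4 months, against 2567, 1276 and 1694 at 1 month (log2 fold change -1.80, SE 0.38, edgeR adjusted p = 0.0351), and thioredoxin H, g38850, with 85.7, 173 and 153 FPKM at 4 months, against 652, 779 and 707 at 1 month (log2 fold change -2.08, SE 0.28, edgeR adjusted p = 0.0187). Metallothionein type 1, g48449, was among the 5 most abundant genes at both ages. It had 11949, 11657 and 18055 FPKM at 4 months and 7224, 4969 and 4575 at 1 month. It was not called (edgeR adjusted p = 0.0676), although the ages did not overlap. Calcium sensors had 2 rises and 15 falls of 90 (2.22% and 16.7%, against 4.81% and 4.74% of all genes tested). The calcium-binding gene g5328 (CML36) had no count at 4 months and 6.18, 3.6 and 6.22 FPKM at 1 month, at least 63.4-fold lower.

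Among the 12 largest falls of described genes with at least 10 FPKM at 1 month were CEN-like 1, a mucin-like gene and a lectin gene. CEN-like 1, g20567, related to the flowering repressors of the TERMINAL FLOWER group, had 0, 0 and 0.0488 FPKM at 4 months, against 16.2, 29.1 and 6.05 at 1 month (log2 fold change -9.68, SE 1.15, edgeR adjusted p = 0.0166). The mucin-2-like gene g56432 had no count at 4 months and 2.14, 24 and 8.17 FPKM at 1 month, at least 240.4-fold lower, and the lectin gene g13087 was at least 129.7-fold lower on the same floor. In both, number 2 was the lowest 1-month library. Among described genes with at least 10 FPKM at 4 months, the largest rise was that of g13406, a UPF0481 protein of no known role, with 29.9, 25.3 and 71.7 FPKM at 4 months, against 0.182, 0.54 and 0.497 at 1 month (log2 fold change 7.01, SE 0.65, edgeR adjusted p = 0.0125).

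Among cell cycle genes falls outnumbered rises, and many ribosomal protein genes stood lower at 4 months although few were called. Of 131 cell cycle genes 5 rose and 12 fell (3.82% and 9.16%, against 4.81% and 4.74% of all genes tested). Markers of dividing cells summed to 550 to 708 FPKM at 4 months, against 662 to 852 FPKM at 1 month. Cyclin D1-1, g47166, which drives entry into the cell cycle, had 29.7, 37.3 and 35.4 FPKM at 4 months, against 12.5, 6.62 and 9.38 at 1 month (log2 fold change 2.14, SE 0.29, edgeR adjusted p = 0.0201). The mitotic cyclin g16930 had 0.446, 0.352 and 0.589 FPKM at 4 months, against 1.31, 2.56 and 2.96 at 1 month (log2 fold change -1.94, SE 0.42, edgeR adjusted p = 0.0377). Of 23 histone genes 3 rose and 0 fell. All 3 code for histone H1, the linker histone, and g405 had 945, 296 and 454 FPKM at 4 months, against 146, 79 and 67.8 at 1 month (log2 fold change 2.89, SE 0.61, edgeR adjusted p = 0.0359). Of 264 cytosolic ribosomal protein genes 0 rose and 2 fell, with a median log2 fold change of -0.43. In 115 of the 264 all 4-month libraries lay below all 1-month libraries and in 10 above, against 20.5% and 19.8% of all genes. Their sum was 10261, 15314 and 15991 FPKM at 4 months, against 19243, 25244 and 24004 at 1 month, and FPKM is not TMM-scaled. WT had 15230 FPKM at 4 months and 34588 FPKM at 1 month. The list of fermentation and low oxygen had 4 rises and 1 fall of 42 (9.52% and 2.38%). The rises included alcohol dehydrogenase-like g3065 and g3070 (log2 fold change 2.28 and 2.39), and the fall was that of hemoglobin gene g34086 (-5.78). The abundant g21290 had 209, 229 and 394 FPKM at 4 months and 38.5, 108 and 154 at 1 month. It was not called (edgeR adjusted p = 0.0665), although its ages did not overlap. Alcohol dehydrogenase 3 (g42371) had 1192, 56.5 and 5.67 FPKM at 4 months and 1.28, 330.3 and 97.2 at 1 month, a spread within each age that left no separation. The abundant g42362 overlapped between ages too.

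**Figure D5:**
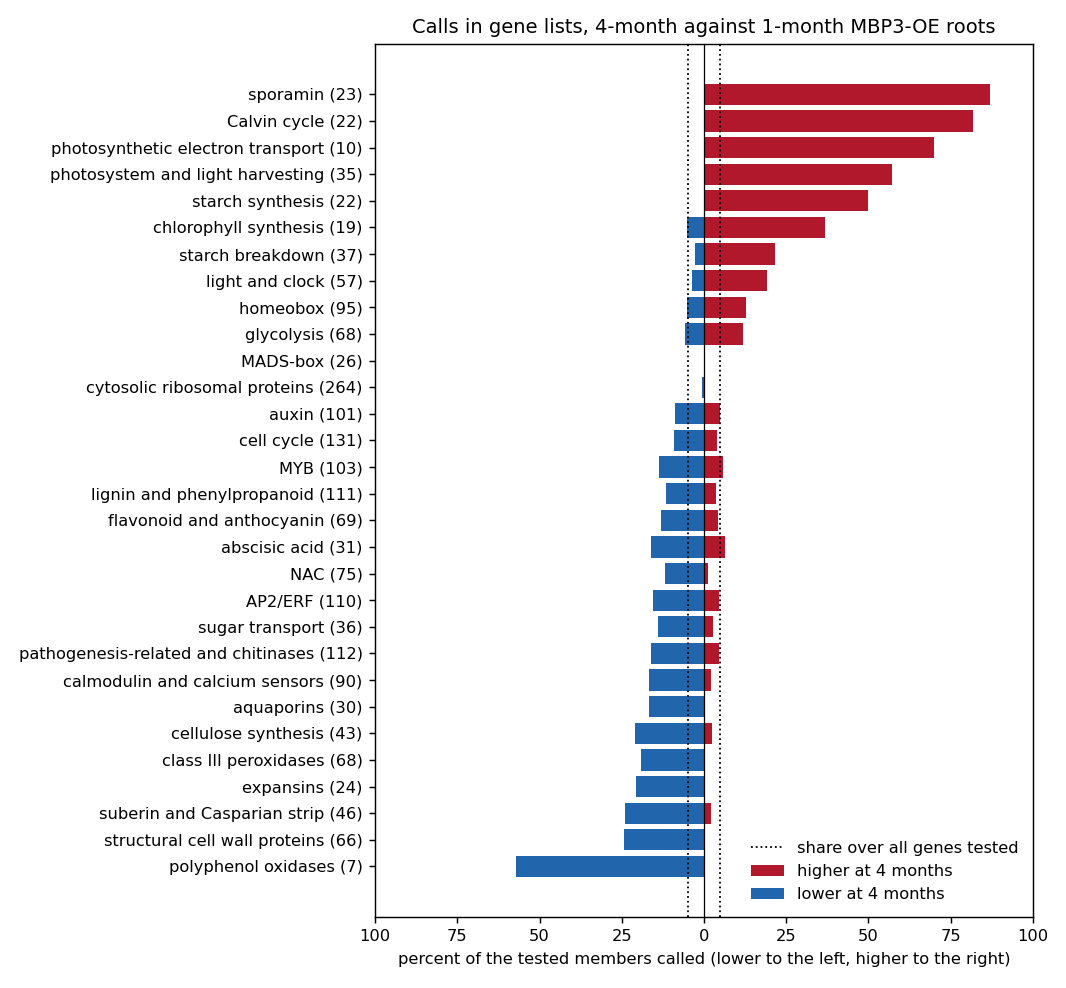
For 30 gene lists (number of genes tested in brackets), the percent of tested members higher at 4 months (red, to the right) and lower at 4 months (blue, to the left), with dotted lines at the shares over all genes tested, 4.81% and 4.74%. Among these 30, chosen by hand from the 50 lists, sporamin and photosynthesis lists stand at the top. Polyphenol oxidases, structural wall proteins, suberin, expansins and class III peroxidases stand at the bottom. Lists not drawn include metallothioneins (40% of 5 lower, 0 higher) and late embryogenesis proteins (25% of 4 lower, 0 higher).

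The single WT libraries of the same ages were set beside the 6, with no test. Of the 1322 genes that rose, 93.2% were higher at 4 months in WT as well and 53.2% by at least 2-fold, and of the 1305 that fell, 70.7% were lower in WT by at least 2-fold. Over all tested genes 41.0% were higher at 4 months in WT, 9.34% at least 2-fold higher and 17.3% at least 2-fold lower (log2 ratio of FPKM plus 1). In WT 9 of the rises were at least 2-fold lower at 4 months and 12 of the falls at least 2-fold higher. The STN7 kinase gene g36554, which adjusts light harvesting, was among the 9, with 59.7, 42.3 and 70.3 FPKM at 4 months, against 10.5, 26 and 17.8 at 1 month, whereas WT had 6.43 FPKM at 4 months and 21.7 FPKM at 1 month. A photorespiratory enzyme gene, g50936 (serine--glyoxylate aminotransferase), had 68.2, 48.6 and 59.8 FPKM at 4 months, against 16.2, 4.05 and 3.12 at 1 month, and WT had 3.95 FPKM at 4 months and 10.8 FPKM at 1 month. Among the 12 were polyphenol oxidase I, above, and the terpene synthase gene g51010, with 73.4, 168 and 140.0 FPKM at 4 months, against 409, 756 and 357 at 1 month and with 689.6 FPKM at 4 months and 287 FPKM at 1 month in WT. A difference of the age effect between genotypes was tested in a fit of 8 libraries with 4 residual degrees of freedom, where the spread of the single WT libraries was taken to be that among MBP3-OE libraries of 1 age. In edgeR it called 0 genes (1952 had an unadjusted p under 0.05), and DESeq2 called 91 genes with a larger and 182 with a smaller log2 change in MBP3-OE. The median difference between the genotypes was 0.94 for the photosystem list, 1.33 for the Calvin cycle and -0.93 for starch synthesis on the log2 scale. It was larger in size for protease inhibitors other than sporamin (-1.89), sporamin (-1.83), jasmonate (-1.56) and polyphenol oxidases (-1.50). No member of these lists was called by edgeR. Sporamin took 11.9% of counts in the 4-month WT library and 0.289% in the 1-month one.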

How the data were processed

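RNA of roots was extracted with Trizol, made into TruSeq libraries and sequenced on an Illumina NovaSeq instrument. The submitters' processing notes name cutadapt 1.9, HISAT2 2.0.4, StringTie 1.3.4d, DESeq2 and edgeR. The authors deposited raw read counts per gene and FPKM per gene in one table of 12 libraries. How the counts were made, the genome build behind the positions and whether strand was used are not given in the sources used here, so overlapping genes may share reads.

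Counts of the 6 libraries were fitted with edgeR 4.0.16 (TMM, quasi-likelihood test, age as the only term) in R 4.3.3, restricted to genes whose FPKM averaged 0.5 or more, with Benjamini-Hochberg adjustment over all of them. A call needed an adjusted p under 0.05 and a change of at least 2-fold. Depth was 39424503 to 58486728 counts a library, and floors of 3 counts cover counting error only. Groups followed the labels. The code was checked on simulated data. DESeq2 1.42.0, limma 3.58.1, other filters, scalings, fits and left-out libraries were alternatives. The FPKM values printed are as deposited by the authors. The comparison and the 50 gene lists, found by words in the deposited descriptions, were chosen with earlier results of these data known, and the lists of the Calvin cycle, electron transport, chlorophyll synthesis and structural wall proteins after their values were seen.

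Genes were named by rule: the 12 largest rises and falls among described calls with at least 10 FPKM at the higher age, the 10 largest gains and losses in FPKM, the 3 most abundant and the 3 most changed called members of each list, the 5 most abundant genes at each age, MBP3 and the called IbEXP genes. Outside it, chosen after their values were seen, stand g1634, g13495, g15560, g23481, g25144, g25498, g26773, g30168, g36554, g38653, g38680, g38684, g42455, g44770, g46489, g46675, g46678, g46881, g50936, g51137, g51416, g54803, g55013, g55740, g57789, g59362, g59499 and g63000.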

Additional observations from a re-analysis of the deposited data

How the results depend on the processing

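The count of 2627 calls in edgeR moved to 5115 with DESeq2, 4763 with all 12 libraries in the fit, 4803 with 9 MBP3-OE libraries, 4134 with limma on log2(FPKM + 0.1) and 184 when edgeR tested against a 2-fold change itself. It stayed within 1.5 times with median-ratio scaling (2620), library totals only (2428), limma on log2(FPKM + 1) (3929), a mean of at least 1 FPKM (2532), no filter (2536), sporamin left out (2594) and no fold minimum (2893). Over the gene lists, 458 calls became 850 with DESeq2, 771 with 12 libraries, 785 with 9, 744 and 759 with limma at a pseudocount of 0.1 and 1, and 41 when tested against 2-fold. Of genes taken by the naming rule 186 were called, and 25 when tested against 2-fold. With a library left out the counts ran from 4 to 2908 over all genes, from 2 to 496 over the lists and from 1 to 153 over the rule's genes. None of the 2627 called genes, where tested, changed direction in any of these fits, which their lack of overlap between ages largely fixed in advance. With a replicate block, by the numbers 2, 3 and 8, the counts were 634, 139 and 54. Deviations of same-numbered libraries correlated at 0.078, 0.071 and 0.048, highest with their own number for 1-month libraries 2 and 3 but not 8, which is too little to take the libraries as paired, and whether the numbers mark lines is not given. The genotype difference in the age effect gave 0 genes in edgeR under every scaling, filter and left-out library run, and with limma, and 273 with DESeq2. The difference in sporamin share, 13.2 percentage points, ran from 11.5 to 16.1 without 1 library, and that of the 10 most abundant genes from 9.34 to 13.6 around 11. The cause of these shifts was not tested, except that fewer libraries entered some fits. Genes that were not called took the other sign in some fits. The log2 fold change was -0.13 for GIGANTEA g2051, -0.032 for the ADP/ATP carrier g31434 and -0.16 for the translocator g54060 with library totals only, and all 3 stood at -0.13 with limma at either pseudocount. Sporamin gene g46881 stood at -0.40 with limma at 0.1 and -0.30 at 1. With 12 libraries CesA1 g19658 stood at 0.013 and sporamin gene g46675 at 0.024, and with the replicate block alcohol dehydrogenase 3 g42371 stood at -1.36. Without 1 library these values ran from -0.035 to 0.44 for g2051, -0.99 to 0.076 for g4923, -0.17 to 0.17 for g19658, -0.14 to 0.53 for g31434, -1.96 to 3.58 for g42371, -0.58 to 0.56 for g46675, -0.094 to 0.35 for g54060 and -0.41 to 0.0041 for g55074.

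The code was run on counts simulated over 27511 genes, of which 200 were changed, with a coefficient of variation of 0.44 for every gene. There 0% of genes changed by 1 on the log2 scale were called, 54% of those changed by 2, 92% by 3 and 100% by 4. In the deposited data far more genes changed and the spread differed by gene, and genes near 2-fold were called, such as g1106 (log2 fold change 1.10). The simulated shares therefore do not give the power of this comparison.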

Other observations

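Gene lists not described above moved as follows between 4 months and 1 month in MBP3-OE roots. In glycolysis 8 of 68 genes rose and 4 fell. The rises with the largest changes code for plastid forms that the Calvin cycle also uses, and glyceraldehyde-3-phosphate dehydrogenase A, g32551, had 13.6, 8.35 and 10.1 FPKM at 4 months, against 0.535, 0.0643 and 0.616 at 1 month (log2 fold change 5.04, SE 0.79, edgeR adjusted p = 0.0242). The cytosolic forms that carry glycolysis were among the abundant genes not called: enolase g25156 had 239, 217 and 218 FPKM at 4 months and 286, 424 and 339 at 1 month (edgeR adjusted p = 0.451). Of 24 carotenoid genes 4 rose and 6 fell, 4 of the falls being the NCED genes that also stand in the abscisic acid list. Zeaxanthin epoxidase g1106, which makes the substrate of the NCED branch, rose, with 46.4, 72 and 73.4 FPKM at 4 months, against 27.2, 36.9 and 46.9 at 1 month (log2 fold change 1.10, SE 0.26, edgeR adjusted p = 0.043). The terpenoid and sterol list had 1 rise and 5 falls of 45, and squalene monooxygenase-like g59572, of sterol synthesis, had 0.0972, 0 and 0.113 FPKM at 4 months, against 2.78, 8.89 and 8.76 at 1 month (log2 fold change -6.16, SE 1.08, edgeR adjusted p = 0.0269).

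Among 41 jasmonate genes 4 rose and 1 fell. JAZ2b, g540, a repressor of jasmonate response, had 3.4, 5.75 and 7.52 FPKM at 4 months, against 0.452, 0.222 and 1.12 at 1 month (log2 fold change 3.52, SE 0.65, edgeR adjusted p = 0.0288). The allene oxide synthase 3-like gene g43174 fell, with 2.05, 4.62 and 3.04 FPKM at 4 months, against 12.2, 21 and 18 at 1 month (log2 fold change -2.10, SE 0.30, edgeR adjusted p = 0.0219), in the other direction from the copy g38656. Of 29 gibberellin and brassinosteroid genes 3 rose and 1 fell. Of 13 EXORDIUM-like genes, linked to growth in Arabidopsis, 1 rose, g34264, with 63.8, 159 and 94.3 FPKM at 4 months, against 31.1, 50.8 and 36.4 at 1 month (log2 fold change 1.71, SE 0.32, edgeR adjusted p = 0.0295), although the median of the list was -1.66. Heat shock proteins had 1 rise and 4 falls of 90 (1.11% and 4.44%), shares below those over all genes. Metallothioneins had 2 falls of 5, and late embryogenesis proteins 1 of 4. The WRKY12-like gene g9098, of a type that in Arabidopsis restrains secondary walls in pith, had 8.4, 1.98 and 10.8 FPKM at 4 months, against 0.667, 0.22 and 1.01 at 1 month (log2 fold change 3.83, SE 0.84, edgeR adjusted p = 0.0385), with number 3 the lowest library at each age. Catalase g38015, which removes hydrogen peroxide and was among the 5 most abundant genes at 1 month, had 5096, 5463 and 3916 FPKM at 4 months and 4262, 1892 and 2584 at 1 month and was not called.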
